A study of Mus musculus with 8 samples.

Results

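The genes described here mark T cells and natural killer (NK) cells, the lymphocytes that recognise and kill altered cells. The list of 36 genes was set by name: T cell receptor and co-receptor genes, costimulatory and checkpoint receptors, cytokine receptors with the regulatory T cell factor Foxp3, genes of killing and of NK cells, and a chemokine group. Each gene was read from the probe that carries only its symbol, and 34 of the 36 had such a probe, out of 22180 genes on the array with a probe of their own. The probe was the only single-symbol probe for each of the 34. Cd247 and Lck, which encode a signalling chain and a kinase of the T cell receptor, were not analysed here.

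The arrays measured total RNA of 8 mammary tumours, all primary, that arose in transgenic mice of the FVB strain. In 4 tumours the genotype was NeuNT, a form of the rodent receptor ErbB2. The other 4 were NeuNT/H1074R, which carry the same NeuNT and also mutant p110α, a catalytic chain of PI3K that Pik3ca encodes, which the title gives as wild type in the first group. The labels write the mutation as H1074R and the series title as H1047R. All tumours of both groups carry NeuNT, so no tumour lacks ErbB2 activation. The labels give neither the promoters of the transgenes nor the age of the mice. They also do not say whether each tumour came from its own mouse, so every p-value measures the spread between these tumours. The series sets wild type against mutant p110α in ErbB2-positive tumours, and here that comparison is made for the lymphocyte genes.

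T cells recognise peptides through a receptor whose CD3 chains carry the signal into the cell, with CD4 or CD8 as co-receptor. Activated T cells then display checkpoint receptors such as PD-1, TIGIT and LAG-3, which restrain them, and CD8 T cells and NK cells kill by releasing perforin and granzymes. In tumours these cells are drawn in by chemokines such as CXCL9 and CXCL10, which bind CXCR3, and CXCL16, which binds CXCR6. In a whole tumour, fewer cells of a type and less RNA per cell cannot be told apart.

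The 8 arrays resembled one another, with medians from 4.82 to 4.87 on the log2 scale and correlations over all genes from 0.942 to 0.988 between pairs. The number of arrays limits the precision: the 95% interval of a genotype difference reached 0.42 to either side at the median of the 34 genes, and 0.37 at the median of all genes. Skeletal muscle genes were high in NeuNT/H1074R replicates 1 and 3, where their mean deviation was 2.03 and 1.53 on the log2 scale against −0.86 to −0.30 in the other 6 tumours. Ptprc, the gene of the pan-leukocyte antigen CD45, was lowest in NeuNT/H1074R replicate 3, at 5.84 against 6.72 to 7.61 elsewhere. The effect of these tumours on the genotype differences of the listed genes is given below by leaving them out.

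To judge which signals are near background, the 1394 olfactory and vomeronasal receptor genes of the array were used, which a mammary tumour is not known to need. Their gene means had a median of 2.55 and a 95th percentile of 4.70, called the olfactory limit here. Means of 12 of the 34 genes lay under that limit: 7 of the 10 killing and NK genes, 4 of the 7 costimulatory and checkpoint genes (Cd27, Cd28, Ctla4 and Tigit), and Cxcr6. No identity gene did. Of the 34, 5 (Ctla4, Tigit, Gzma, Klrk1 and Ncr1) fell in the lowest 25% of all genes, under 4.06, and 29 lay above. Probes differ in brightness, so a low mean bounds what the array could show for a gene and is not evidence that its transcript was missing.

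Several T cell genes varied widely from tumour to tumour within a genotype. One NeuNT tumour, replicate 4, was the highest of all 8 for 20 of the 34 genes, or 58.8%, where the same tumour was highest for 12.8% of all genes. Those 20 included the co-receptors Cd8a and Cd8b1, the checkpoint receptor Tigit, the interleukin 7 receptor gene Il7r and the chemokine gene Ccl5. NeuNT replicate 2 was second for the CD3 genes Cd3e and Cd3g and highest for Cd4, but lay near the other tumours for Cd8a. Granzyme B was highest in NeuNT/H1074R replicate 2, second in NeuNT replicate 2 and low in NeuNT replicate 4. No gene of the list differed between the genotypes past the threshold.

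**Figure D1:**
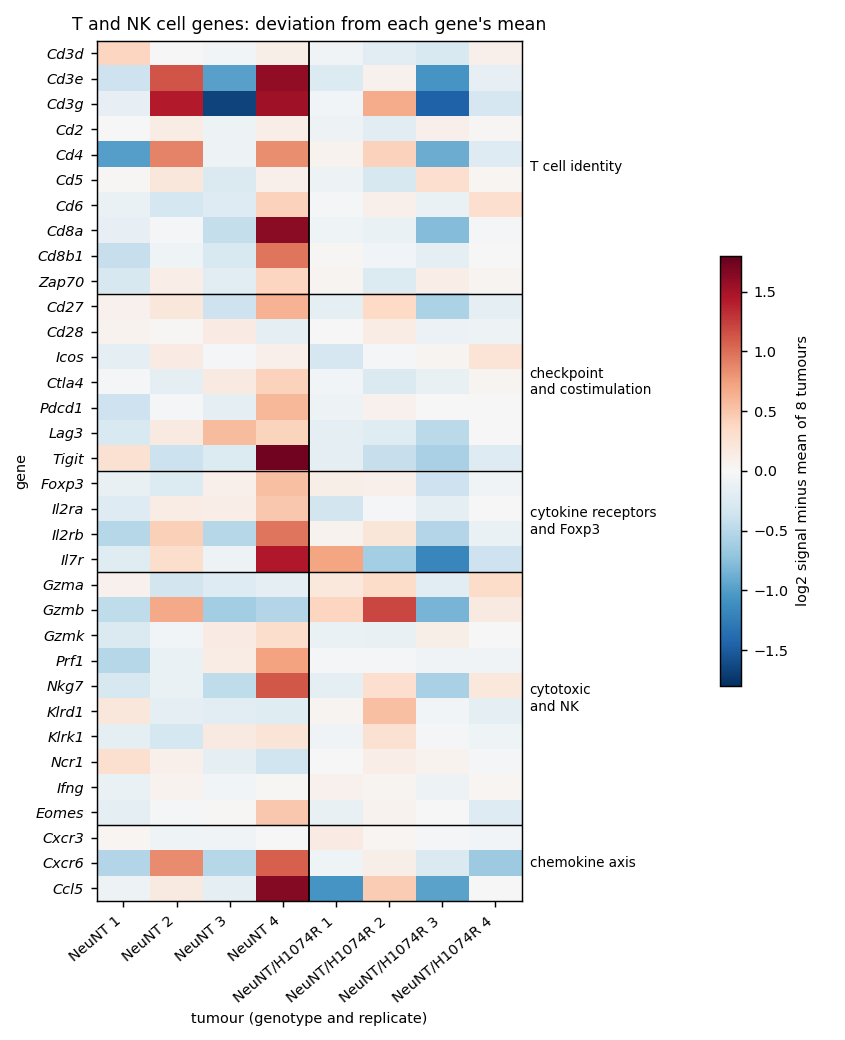
Log2 signal of 34 T and NK cell genes (rows, grouped by role) in each of 8 tumours (columns) as the deviation from the gene's own mean over the 8 tumours; red is above and blue below that mean, and the black line parts the genotypes. NeuNT replicate 4 is the reddest column, with the highest value for 20 genes, and NeuNT/H1074R replicate 3 has the lowest value for 11.

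The CD3 genes show how unequal members of a complex were on this array. Cd3d, Cd3e and Cd3g lie together on chromosome 9, the starts of Cd3d and Cd3g 1355 bases apart on opposite strands and that of Cd3e 27825 bases from Cd3d. Their promoters are printed with that of Gzmb, a killing gene that was low in NeuNT replicate 4, where Cd3e and Cd3g were highest. Each run covers 250 bases before to 50 bases after the start, 5′ to 3′ on the gene's strand, from RefSeq on GRCm38.p6, the C57BL/6J reference and not FVB. Capitals mark matches, on either strand, to an ETS core (AGGAAG), a RUNX core (TGTGGT) or an AP-1 site (TGANTCA), and no matches of different motifs overlapped. Cd3d lies at chr9:44981536-44981835 on the forward strand, Cd3e at chr9:45009562-45009861 on the reverse strand, Cd3g at chr9:44980382-44980681 on the reverse strand and Gzmb at chr14:56262285-56262584 on the reverse strand.
Cd3d promoter: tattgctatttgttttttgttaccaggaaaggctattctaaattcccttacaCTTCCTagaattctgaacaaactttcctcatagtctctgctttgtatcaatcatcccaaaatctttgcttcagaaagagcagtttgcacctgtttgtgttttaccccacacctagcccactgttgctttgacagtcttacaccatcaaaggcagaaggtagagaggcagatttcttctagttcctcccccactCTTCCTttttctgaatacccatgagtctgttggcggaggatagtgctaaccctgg
Cd3e promoter: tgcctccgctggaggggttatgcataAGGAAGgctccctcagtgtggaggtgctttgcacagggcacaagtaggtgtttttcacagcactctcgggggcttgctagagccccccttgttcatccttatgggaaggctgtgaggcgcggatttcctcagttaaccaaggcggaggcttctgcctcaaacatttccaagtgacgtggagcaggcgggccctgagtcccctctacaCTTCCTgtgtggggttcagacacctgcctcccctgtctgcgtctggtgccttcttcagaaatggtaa
Cd3g promoter: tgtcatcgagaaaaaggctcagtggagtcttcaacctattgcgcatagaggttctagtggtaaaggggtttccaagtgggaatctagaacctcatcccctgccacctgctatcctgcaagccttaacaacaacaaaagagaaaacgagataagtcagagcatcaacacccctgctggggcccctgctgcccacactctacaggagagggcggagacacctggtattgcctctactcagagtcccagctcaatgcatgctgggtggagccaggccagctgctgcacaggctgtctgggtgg
Gzmb promoter: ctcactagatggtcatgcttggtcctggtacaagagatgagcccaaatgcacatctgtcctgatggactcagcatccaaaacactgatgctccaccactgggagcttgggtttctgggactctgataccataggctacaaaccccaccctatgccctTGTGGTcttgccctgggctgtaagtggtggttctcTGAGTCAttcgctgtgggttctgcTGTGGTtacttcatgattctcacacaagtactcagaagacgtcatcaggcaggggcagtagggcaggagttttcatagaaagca

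The Cd3d and Cd3e promoters held 2 ETS cores each, and that of Cd3g held none of the 3 motifs in this window. Gzmb held 2 RUNX cores and 1 AP-1 site. Of all 32544 distinct promoters of this length, 35.1% held the ETS core, 16.7% the RUNX core and 7.79% the AP-1 site. Among the 26 of 36 listed genes with a promoter available, 14, 12 and 2 held them. A gene was counted if any of its promoters held the motif, and Zap70, Lck, Ncr1 and Foxp3 had more than 1. These counts of genes and the shares of single promoters are therefore unlike measures. A match describes these letters and is no measurement of binding.

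Cd3e and Cd3g, both signalling chains of the T cell receptor, ranged more widely over the tumours than Cd3d. Cd3e stood at 6.60, 8.10, 6.00 and 8.57 in NeuNT replicates 1 to 4 and at 6.73, 7.05, 5.91 and 6.82 in NeuNT/H1074R replicates 1 to 4, all as log2 signal. Cd3g stood at 5.75, 7.33, 4.23 and 7.43 in NeuNT and at 5.85, 6.57, 4.45 and 5.60 in NeuNT/H1074R. Both genes were high in NeuNT replicates 2 and 4 and low in replicate 3 of either genotype, and the genotypes overlapped. The highest tumour exceeded the lowest 6.33-fold for Cd3e. For Cd3g no fold is given, since its values in replicate 3 of both genotypes lay under the olfactory limit.

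Cd3d, the remaining CD3 chain measured, varied less. It stood at 5.33, 4.94, 4.90 and 5.05 in NeuNT and at 4.89, 4.76, 4.67 and 5.04 in NeuNT/H1074R, a range of 0.66. The value in NeuNT/H1074R replicate 3 lay under the olfactory limit, so no fold is given. Its highest tumour was NeuNT replicate 1 and not replicate 4. Whether the Cd3d probe reads its transcript as fully as the Cd3e and Cd3g probes do was not tested.

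Cd4, the co-receptor of helper and regulatory T cells, which macrophages can also express, was 5.13, 7.02, 6.04 and 6.97 in NeuNT and 6.19, 6.54, 5.23 and 5.90 in NeuNT/H1074R. The same pair of NeuNT tumours was highest, and NeuNT replicate 1 was lowest. Cd8a, the co-receptor of cytotoxic T cells, was 4.86, 4.97, 4.57 and 6.63 in NeuNT and 4.92, 4.89, 4.22 and 4.97 in NeuNT/H1074R. Here NeuNT replicate 4 stood alone, 1.66 above the next tumour. Cd8b1, which encodes the partner chain, was also highest there, at 6.40, while the other 7 tumours lay between 5.02 and 5.46.

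The other identity genes varied less. The adhesion receptor Cd2 ranged from 4.66 to 4.98 and Cd5, a receptor that tunes T cell signalling, from 4.85 to 5.44. Cd6, related to Cd5, ranged from 4.88 to 5.61, and Zap70, the kinase recruited to the CD3 chains, from 4.96 to 5.64. Cd6 and Zap70 were highest in NeuNT replicate 4, Cd2 in NeuNT replicate 2 and Cd5 in NeuNT/H1074R replicate 3.

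**Figure D2:**
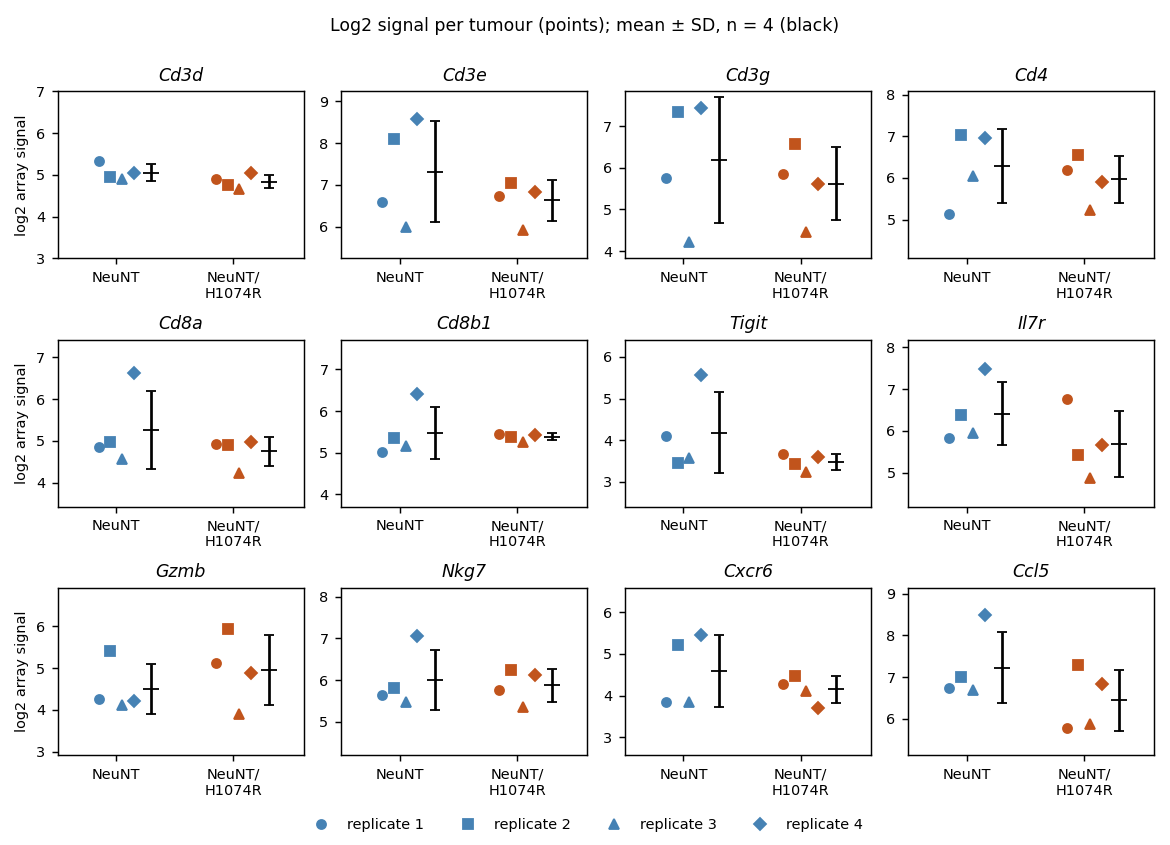
Log2 array signal of 12 of the genes in each tumour (points, with a symbol for each replicate number) by genotype, with the mean ± SD of 4 tumours in black; every panel spans 4 log2 units. Cd3e, Cd3g and Cd4 are high in NeuNT replicates 2 and 4, Cd8a, Cd8b1 and Tigit in NeuNT replicate 4 alone, and Gzmb in NeuNT/H1074R replicate 2 and NeuNT replicate 2.

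Among costimulatory and checkpoint receptors, Tigit and Pdcd1 were highest in NeuNT replicate 4. Tigit, an inhibitory receptor that binds Pvr, stood at 4.11, 3.45, 3.58 and 5.57 in NeuNT and at 3.66, 3.42, 3.25 and 3.60 in NeuNT/H1074R. All but that tumour lay under the olfactory limit, so the size of the gap is not given. Pdcd1, which encodes PD-1, was 5.92 there and 4.95 to 5.40 in the other 7 tumours. The costimulatory receptor Cd27 ranged from 3.65 to 4.85 and the inhibitory receptor Ctla4 from 2.97 to 3.64, both highest in the same tumour.

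Lag3, an inhibitory receptor that binds MHC class II, had another pattern. It stood at 5.53, 5.96, 6.37 and 6.20 in NeuNT and at 5.64, 5.58, 5.32 and 5.81 in NeuNT/H1074R. NeuNT replicates 2, 3 and 4 lay above every NeuNT/H1074R tumour, and NeuNT replicate 1 lay among them. Cd28 and Icos, which costimulate T cells, ranged over 0.32 and 0.55 and were highest in NeuNT replicate 3 and NeuNT/H1074R replicate 4.

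All 4 genes of the group of cytokine receptors and Foxp3 were highest in NeuNT replicate 4. Il7r, the receptor chain that keeps naive and memory T cells alive, stood at 5.83, 6.37, 5.95 and 7.49 in NeuNT and at 6.76, 5.43, 4.88 and 5.67 in NeuNT/H1074R. Il2rb, a chain shared by the receptors of interleukins 2 and 15, was 5.06, 6.00, 5.06 and 6.53 in NeuNT and 5.64, 5.79, 5.05 and 5.46 in NeuNT/H1074R, with NeuNT replicate 2 second, as for Cd3e. Foxp3, the defining factor of regulatory T cells, was 5.48 in NeuNT replicate 4 and 4.57 to 5.05 in the others. Il2ra, the high-affinity interleukin 2 receptor chain of regulatory and activated T cells, was 5.76 there and 4.94 to 5.41 in the others.

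Killing and NK cell genes did not share 1 pattern over the tumours. Gzmb, which encodes the protease granzyme B, stood at 4.27, 5.41, 4.11 and 4.21 in NeuNT and at 5.12, 5.94, 3.90 and 4.89 in NeuNT/H1074R. NeuNT replicate 4, the tumour with the most Cd8a signal, was among the 4 tumours whose Gzmb value lay under the olfactory limit. Nkg7, a granule membrane protein of T and NK cells, was instead highest there, at 7.06 against 5.35 to 6.24 in the other 7. Prf1, the pore-forming perforin, was 6.35 there and 5.11 to 5.76 in the others, and its 4 NeuNT/H1074R tumours lay within 5.56 to 5.60.

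The genes most particular to NK cells by function were low on the array. Ncr1, which encodes the NK receptor NKp46, ranged from 3.65 to 4.30, lowest in NeuNT replicate 4. Klrd1, which encodes CD94, ranged from 3.98 to 4.74 and was also lowest in that tumour. Eomes, a transcription factor of NK and memory T cells, ranged from 4.26 to 4.98 and was highest there. Klrk1, the activating receptor NKG2D, ranged from 3.21 to 3.80, Gzma from 2.80 to 3.45, Gzmk from 4.13 to 4.70 and the cytokine gene Ifng from 4.35 to 4.55.

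The chemokine group split. Ccl5, a chemokine released by activated T and NK cells and also by other cells, stood at 6.74, 7.00, 6.68 and 8.49 in NeuNT and at 5.78, 7.29, 5.87 and 6.83 in NeuNT/H1074R. Cxcr6, a receptor of resident and effector T cells, was 3.84, 5.22, 3.85 and 5.45 in NeuNT and 4.29, 4.48, 4.11 and 3.71 in NeuNT/H1074R. Ccl5 was highest in NeuNT replicate 4, and Cxcr6 was high in NeuNT replicates 2 and 4, the tumours high for Cd3e, and under the olfactory limit in the others. Cxcr3, the receptor of Cxcl9 and Cxcl10, stayed within 5.33 to 5.55 in all 8 tumours.

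A range over 1 on the log2 scale was found for 15 of the 34 genes, or 44.1%, and for 26.1% of all genes. Of these 15, 12 were highest in NeuNT replicate 4, which its own high values help to set, and 16.7% of all genes with such a range were highest there. Over the 7 other tumours, a range over 1 was found for 8 of the 34 genes, or 23.5%, and for 22.9% of all genes. These 8 were Cd3e, Cd3g, Cd4, Lag3, Il7r, Gzmb, Cxcr6 and Ccl5. At the low end, NeuNT/H1074R replicate 3 had the lowest value for 11 of the 34, or 32.4%, where it was lowest for 12.5% of all genes. That tumour was also lowest for Ptprc and for 6 of 8 macrophage markers. It was 1 of the pair with high muscle genes. The part of the other tissue in its low values was not tested.

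Between genotypes, the values of the list lay mostly on the lower side in NeuNT/H1074R, by small amounts. In limma, 0 of 34 genes passed an adjusted p of 0.05, as did 0 of all 22180 genes (0%). The 34 adjusted p-values ran from 0.968 to 0.994. Before adjustment, 1 of 34, Gzma, lay under 0.05, against 4.22% of all genes (2.67% higher and 1.55% lower in NeuNT/H1074R). The genotypes did not overlap for 0 of the 34, and for 2.94% of all genes (1.9% higher and 1.03% lower in NeuNT/H1074R). The difference, NeuNT/H1074R minus NeuNT, was below 0 for 26 of 34 (76.5%), against 47.4% of all genes. The median difference was −0.12 on the log2 scale for the list and 0.01 for all genes. Without NeuNT replicate 4 the difference was below 0 for 18 of 34 (52.9%), with 47.1% of all genes, and the median was −0.01. Without NeuNT replicate 1 it was below 0 for 26 of 34, and the median was −0.21. Without NeuNT/H1074R replicates 1 and 3, which were high in muscle genes, it was below 0 for 22 of 34, with a median of −0.09. Markers of some other cells lay on the lower side too, and those of others did not. Macrophage markers were lower for 8 of 8 with a median difference of −0.37, and fibroblast markers for 5 of 5 with −0.28. B cell markers were lower for 5 of 9 (55.6%, against 47.4% of all genes) with −0.11, and Ptprc differed by −0.36. In NeuNT/H1074R replicate 3 Ptprc was 5.84, against 6.80 to 7.51 in the rest of that genotype and 6.72 to 7.61 in NeuNT. Macrophage markers had a mean deviation of −0.84 in that tumour and −0.30 to 0.27 in the rest of its genotype, against −0.13 to 0.40 in NeuNT. Differences of these markers without that tumour are not given. Lymph node stroma markers were lower for 2 of 3 with −0.745, and endothelial markers for 2 of 4 with −0.10. Epithelial markers were lower for 2 of 7 with 0.07, dendritic cell markers for 1 of 5 with 0.10, and skeletal muscle genes for 0 of 6 with 1.27. The part of other cells in the lower side of the lymphocyte genes was not tested.

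**Figure D3:**
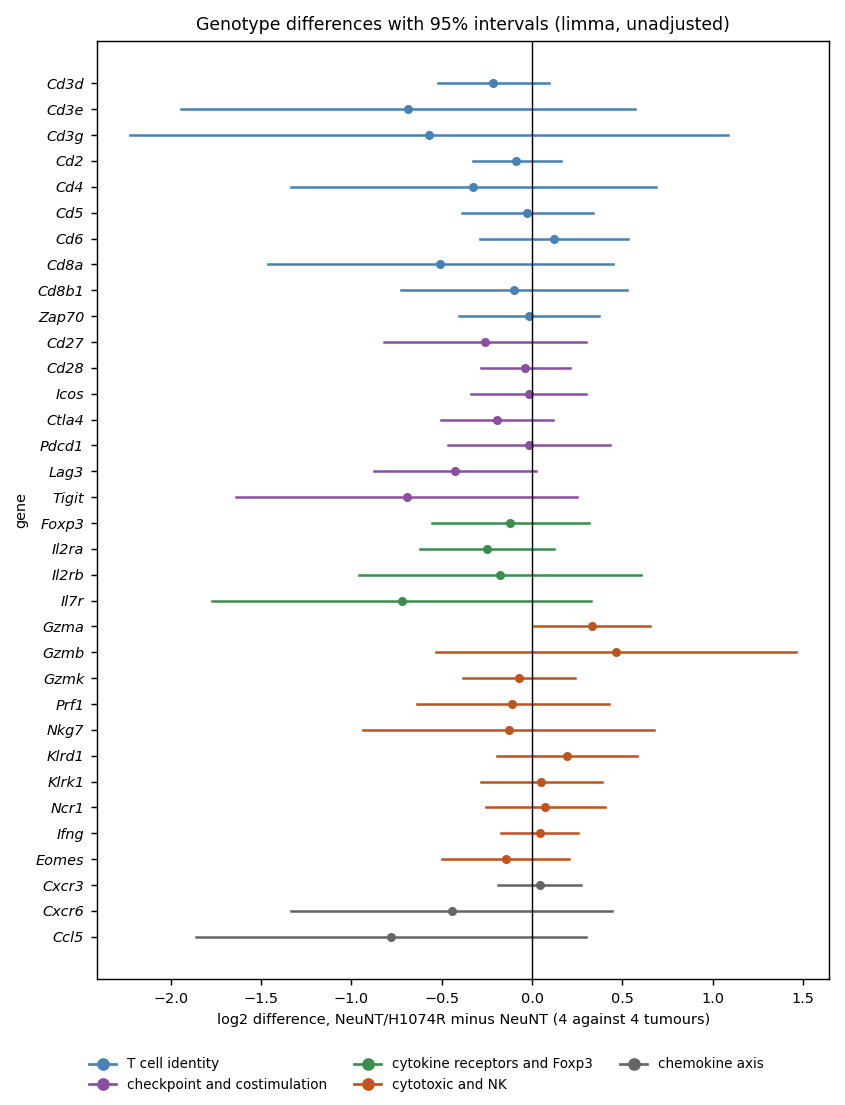
Log2 difference in signal, NeuNT/H1074R minus NeuNT, for each of 34 genes (points, coloured by role) with its unadjusted 95% interval from limma (lines), 4 tumours against 4. All intervals but that of Gzma cross 0, and those of Cd3e and Cd3g are among the widest.

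The difference between roles was not tested. Of all genes, 47.4% were lower in NeuNT/H1074R. Identity genes were lower for 9 of 10 with a median difference of −0.16, costimulatory and checkpoint genes for 7 of 7 with −0.19, and cytokine receptors and Foxp3 for 4 of 4 with −0.21. Killing and NK genes were lower for 4 of 10, with a median of 0.05. That direction did not hold: the median was −0.075 without the lowest 25% of genes, −0.12 without the lowest 50% and 0 without NeuNT/H1074R replicate 2. The chemokine group was lower for 2 of 3, with −0.44. Without NeuNT replicate 4 the medians were −0.06, −0.10, −0.05, 0.13 and −0.16 in the same order. Over all single tumours left out, they ran from −0.24 to −0.06, −0.24 to −0.10, −0.37 to −0.05, 0 to 0.13 and −0.69 to −0.16. The SD between tumours of a genotype in a role's median deviation was 0.29, 0.16, 0.34, 0.12 and 0.42. It describes the spread of single tumours and is no SE of the median differences, whose uncertainty was not measured.

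Single genes had wide intervals. Cd3e was 7.32 ± 1.22 (SD, n = 4) in NeuNT and 6.63 ± 0.50 (SD, n = 4) in NeuNT/H1074R, a difference of −0.69 ± 0.55 (SE) with a 95% interval from −1.94 to 0.57 (limma, adjusted p = 0.968). Without NeuNT replicate 3 it was −1.13, and without NeuNT replicate 4 it was −0.27. Cd8a differed by −0.51 ± 0.42 (SE), by −0.74 without NeuNT replicate 3 and by −0.05 without NeuNT replicate 4. Cd3g differed by −0.57 ± 0.73 (SE), by −1.22 without NeuNT replicate 3 and by −0.16 without NeuNT replicate 4. Cd4 differed by −0.33 ± 0.45 (SE), by −0.71 without NeuNT replicate 1 and by −0.08 without NeuNT/H1074R replicate 3. The intervals of all 4 genes included differences in either direction.

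Among the listed genes with a mean over the olfactory limit, Lag3 had the smallest p before adjustment. It was 6.01 ± 0.37 (SD, n = 4) in NeuNT and 5.59 ± 0.20 (SD, n = 4) in NeuNT/H1074R, a difference of −0.43 ± 0.20 (SE) with an interval from −0.88 to 0.02 (limma, adjusted p = 0.968). Ccl5 differed by −0.78 ± 0.48 (SE) and Il7r by −0.72 ± 0.46 (SE). Tigit, with a mean under that limit, differed by −0.69 ± 0.42 (SE). All its tumours but NeuNT replicate 4 lay under the limit, so the sizes given for Tigit are uncertain. When single tumours were left out, Ccl5 ran from −1.06 to −0.36, Il7r from −1.08 to −0.36 and Tigit from −0.94 to −0.23, with the ends nearest 0 without NeuNT replicate 4.

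On the other side, Gzma was 2.96 ± 0.17 (SD, n = 4) in NeuNT and 3.29 ± 0.25 (SD, n = 4) in NeuNT/H1074R, a difference of 0.33 ± 0.14 (SE) (limma, adjusted p = 0.968). Its values, 3.20, 2.80, 2.89 and 2.95 against 3.32, 3.45, 2.93 and 3.45, overlapped and lay in the lowest 25% of genes. Gzmb differed by 0.47 ± 0.44 (SE), by 0.14 without NeuNT/H1074R replicate 2 and by 0.82 without NeuNT/H1074R replicate 3. Klrd1 differed by 0.19 ± 0.17 (SE), by 0.05 without NeuNT/H1074R replicate 2 and by 0.29 without NeuNT replicate 1. Of the 34 genes, 20 had a difference smaller than its SE.

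The other genes of T and NK cells, fixed as a list of 40 with 32 measured, also held none that passed. Of these, 21 of 32 (65.6%, against 47.4% of all genes) were lower, with a median difference of −0.09 and a lowest p before adjustment of 0.11 (limma, adjusted p = 0.968). The 4 of smallest p were Lcp2, an adaptor of T cell receptor signalling that myeloid cells share, at −0.45 ± 0.25 (SE), the T cell kinase gene Txk at 0.18, Ubash3a, a brake on receptor signalling, at 0.24, and Tbx21, which encodes the T-bet factor of effector cells, at 0.19. NeuNT replicate 4 was highest for 12 of the 32, and for 12.8% of all genes.

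Ligands of the listed receptors had a median residual SD of 0.53 between tumours, against 0.28 for the 34 genes. Of 15 measured, 12 (80%, against 47.4% of all genes) were lower in NeuNT/H1074R, with a median difference of −0.41, and none passed (limma, smallest adjusted p = 0.968). Before adjustment 2 of 15 lay under 0.05, Cxcl10 and Ulbp1, against 4.22% of all genes. Cxcl9, a Cxcr3 ligand induced by interferon gamma, stood at 6.49, 6.64, 6.54 and 9.59 in NeuNT and at 4.84, 6.78, 5.69 and 5.81 in NeuNT/H1074R, a difference of −1.53 ± 0.71 (SE) that was −0.78 without NeuNT replicate 4. That tumour stood alone for Cxcl9, as it did for Cd8a. Cxcl10, of the same family, differed by −1.10 ± 0.41 (SE), from 4.61, 5.76, 6.44 and 6.48 to 4.48, 5.32, 4.43 and 4.65. NeuNT replicate 1 and NeuNT/H1074R replicates 1, 3 and 4 lay under the olfactory limit for Cxcl10, so that size is uncertain. Cxcl11 was 8.25 in NeuNT replicate 3 and 4.12 to 5.74 in the others.

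Cd80, the ligand of Cd28 and Ctla4 on antigen-presenting cells, was 8.54 in NeuNT replicate 4 and 4.82 to 6.01 in the others. Cd274, which encodes the PD-1 ligand PD-L1, was 7.73 and 8.18 in NeuNT replicates 3 and 4 and 6.29 to 6.98 in the others. Cxcl16, the ligand of Cxcr6, was 10.16 and 10.20 in the same pair of tumours and 8.82 to 9.85 elsewhere, so it was not high in NeuNT replicate 2, where Cxcr6 was. Ulbp1, a ligand of NKG2D, differed by −0.43 ± 0.15 (SE), with 5.41, 4.95, 5.02 and 5.32 in NeuNT and 4.76, 4.95, 4.46 and 4.80 in NeuNT/H1074R. The cytokine gene Il7 was 5.80 in NeuNT replicate 2 and 3.45 to 4.05 in the others.

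Markers of other cells were set beside the lymphocyte genes. B cell markers, 9 of 10 measured, had a mean deviation from −0.07 to 0.37 in NeuNT and from −0.16 to 0.02 in NeuNT/H1074R, with the highest value again in NeuNT replicate 4. Of the 9, 4 were highest in that tumour, against 12.8% of all genes. The B cell receptor gene Cd79a was 5.65 there against 4.08 to 4.72 elsewhere, and the immunoglobulin gene Ighm 9.82 against 8.43 to 9.01. Pax5 was instead lowest there, at 4.42 against 4.53 to 4.84, and Cd22, Fcer2a, Blk and Cr2 were not highest there. The follicle chemokine Cxcl13, from the lymph node stroma list, was 7.82 there against 5.67 to 6.32. The B cell gene Ms4a1, named after its values were seen, was dim, at 2.72 to 4.05, also highest in that tumour. Ptprc was highest in NeuNT replicate 4 as well, at 7.61 against 5.84 to 7.51 in the others. Macrophage markers, 8 of 8 measured, did not peak there: they ran from −0.13 to 0.40 in NeuNT, with 0.05 in replicate 4, and from −0.84 to 0.27 in NeuNT/H1074R. Of lymph node stroma markers 3 of 5 were measured, and 1 of them, Glycam1, is also a milk gene. Their mean deviation was 1.37 in NeuNT replicate 4 and 1.04 in NeuNT replicate 1, and −0.54 to −0.16 in the others. Glycam1 made the largest part of both high means, at 8.46 in NeuNT replicate 4 and 9.37 in NeuNT replicate 1. Madcam1 was 5.12 and 4.92 in these tumours, with a range of 0.365 over all 8. Cxcl13 was 6.14 in NeuNT replicate 1, so only Glycam1 of the 3 was high there. Whether lymphoid tissue beside the tumour added to the signals of NeuNT replicate 4 was not tested.

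**Figure D4:**
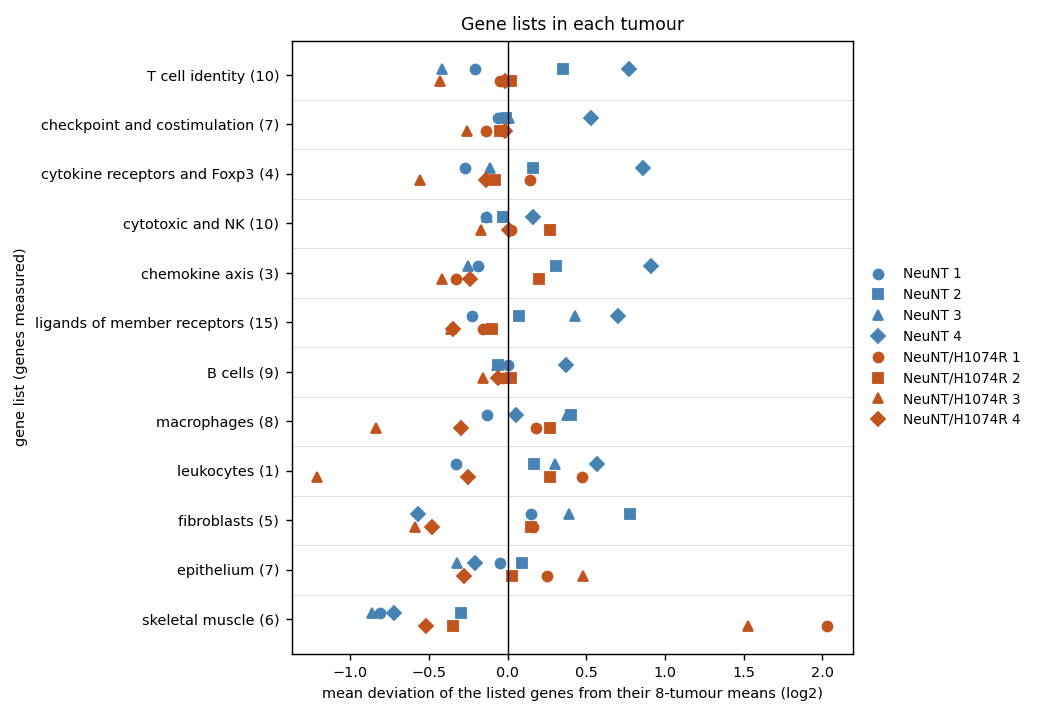
Mean deviation (log2) of each gene list from its genes' 8-tumour means, with 1 point for each tumour, coloured by genotype and shaped by replicate number; the number of genes measured is in brackets. NeuNT replicate 4 is the highest point for identity, checkpoint, cytokine receptor, chemokine, ligand, B cell and leukocyte (Ptprc) lists. It is not the highest for killing and NK genes, macrophages, fibroblasts, epithelium or skeletal muscle.

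As mean deviation over a group's genes, NeuNT replicate 4 stood at 0.77 for identity, 0.53 for costimulatory and checkpoint, 0.86 for cytokine receptor and 0.91 for chemokine genes, but at 0.16 for killing and NK genes. NeuNT/H1074R replicate 2 was highest for the last group, at 0.27, and near 0 for identity genes, at 0.02. In that group 7 of 10 genes had means under the olfactory limit, and Gzmb alone was 5.94 in that tumour against its mean of 4.73, so no order of tumours is drawn from it. NeuNT replicate 2 was raised for identity genes, at 0.35, and not for costimulatory and checkpoint genes, at −0.01. NeuNT/H1074R replicate 3 was lowest in all 5 groups, from −0.56 to −0.17.

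Pairs of genes were followed across the 8 tumours with Cd3e as the common partner, in 10 comparisons. Cd3g followed it most closely, with Pearson's r of 0.95 and Spearman's rho of 0.90 (exact two-sided permutation, p = 0.000645 and 0.00456, adjusted p = 0.00446 and 0.0228). Cd8a gave r of 0.84 and rho of 0.93 (exact permutation, p = 0.000893 and 0.00223, adjusted p = 0.00446 and 0.0223). Cd4 gave r of 0.82 and rho of 0.81 (exact permutation, p = 0.00933 and 0.0218, adjusted p = 0.0311 and 0.0544). Without NeuNT replicates 2 and 4, the tumours farthest from the median of Cd3e, r was 0.96 for Cd3g, 0.89 for Cd8a and 0.53 for Cd4, and none passed over 6 tumours (exact permutation, adjusted p = 0.102, 0.102 and 0.439). Of these genes only Cd4 had a lower r without the pair, while rho was lower for each, at 0.77, 0.83 and 0.60. These changes were not tested. Taken as deviations from the genotype means, r was 0.96, 0.81 and 0.81 (exact permutation, adjusted p = 0.00198, 0.0496 and 0.0641) and rho 0.95, 0.76 and 0.88 (exact permutation, adjusted p = 0.0114, 0.115 and 0.0362), so Cd8a passed by r alone and Cd4 by rho alone. A genotype holds 4 tumours, too few for a correlation of its own.

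The 7 other partners did not pass. Ccl5 gave r of 0.78 and rho of 0.83 (exact permutation, p = 0.0271 and 0.0154, adjusted p = 0.0677 and 0.0513). Cxcl9 gave r of 0.71 and rho of 0.69, and Pdcd1 r of 0.70 and rho of 0.52 (exact permutation, adjusted p of r = 0.12 for both). Without the same pair of tumours r was 0.03 for Cxcl9 and 0.21 for Pdcd1. Foxp3 and the B cell gene Cd79b each gave r of 0.51, with rho of 0.48 and 0.40. Gzmb gave r of 0.33, and 0.89 without the pair, in which NeuNT replicate 4 had high Cd3e and low Gzmb (exact permutation, adjusted p = 0.408 and 0.0833). Ncr1 gave r of −0.36, and 0.35 without the pair.

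**Figure D5:**
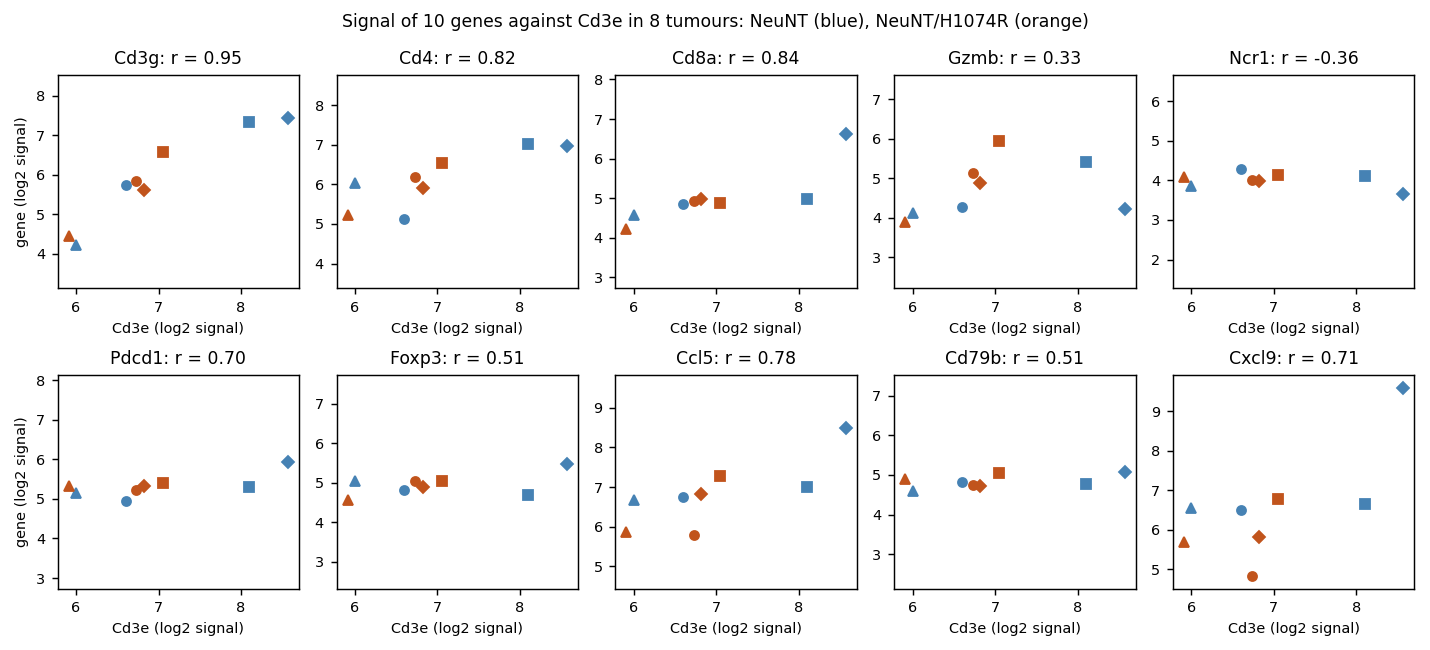
Log2 signal of 10 genes (y axes, each spanning the same number of log2 units) against that of Cd3e (x axes) in 8 tumours, blue for NeuNT and orange for NeuNT/H1074R, with a symbol for each replicate number (circle 1, square 2, triangle 3, diamond 4). Cd3g tends to be higher where Cd3e is (r = 0.95), Cd8a is far higher in a single tumour, and Gzmb is low in the tumour of highest Cd3e.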

How the data were processed

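The authors deposited 1 table of log2 array signals, with 8 columns and 41345 probes. Affymetrix Expression Console and Transcriptome Analysis Console were used, per the submitters' processing notes, with background correction and normalization not given in the sources used here. Values ran from 0.887 to 13.6 on a scale taken as log2 from that range, and were used as deposited. Background and normalization can compress differences of dim genes. Probes were named from GEO's platform annotation: 23521 had 1 gene symbol, 1814 had several and were left out, and 16010 were unnamed here. A gene was represented by its probe of highest mean, and dim genes were kept. The symbols of the 34 genes matched RefSeq.

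Genotypes were compared with limma 3.58.1 in R 4.3.3 (lmFit, eBayes with an intensity trend) over 22180 genes, as a two-sided test, and p-values were adjusted by Benjamini-Hochberg across these genes. The test was checked on simulated data. Correlations used exact permutations (scipy 1.17.1), adjusted over 10 pairs. A mean deviation is the average, over a list's genes, of signal minus the gene's 8-tumour mean.

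Groups came from the genotype labels, with replicates numbered in accession order. The list and its roles were chosen with earlier results of these data known. All listed genes could be named; of other lists, the ligands and the 4 genes of smallest p, and further markers were chosen after their values were seen. Alternatives left out each tumour or both tumours with high muscle genes, renormalized or centred the arrays, filtered dim genes, averaged probes, and changed the variance model or the array weights.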

Additional observations from a re-analysis of the deposited data

Results flagged for a closer look

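Within a genotype, a tumour was singled out when its gap to the nearest other tumour took up more of the group's range than Dixon's 95% critical value for 4 values. This held for 3 of 68 groups checked (34 genes in each genotype), and chance gives about 1 in 20. Cd8a was 4.22 in NeuNT/H1074R replicate 3 and 4.89 to 4.97 in the 3 other tumours of that genotype. Gzmb was 5.41 in NeuNT replicate 2 and 4.11 to 4.27 in the 3 others. Klrd1 was 4.41 in NeuNT replicate 1 and 3.98 to 4.03 in the 3 others. The flagged Cd8a value, the 3 other Gzmb values and every NeuNT value of Klrd1 lay under the olfactory limit. The sizes of these gaps are therefore uncertain. NeuNT replicate 4 crossed the limit for 0 of the 34 genes.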

How the results depend on the processing

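No gene of the list passed under any alternative run. The number of genes whose genotypes did not overlap, 0 of 34, ran from 0 to 3 when single tumours were left out (Il2ra, Klrd1 and Lag3 without NeuNT replicate 1, or 8.82%, with 6.94% of all genes) and was 2 without both tumours with high muscle genes (Gzma and Il7r, or 5.88%, with 18.4% of all genes). Fewer tumours overlap less often by construction. Without those tumours the checkpoint median was −0.025. With the lower 50% of genes left out, 8 genes remained, all lower, and the medians were −0.50 for the list, −0.57 for identity, −0.43 for checkpoint, −0.72 for cytokine receptor and −0.12 for killing genes, from fewer genes. With the lower 25% left out, the killing median was −0.075 and the checkpoint median −0.038, so the killing median, 0.05 with all genes, changed sign under both filters. The correlation of Ncr1 with Cd3e turned to 0.35 without NeuNT replicates 2 and 4. Of the differences printed for single genes, none that was rerun changed sign under any alternative. That of Ptprc was not rerun. Centring the arrays moved the share of all genes below 0 from 47.4% to 51.8%. No paired analysis was possible because no tumour number occurs in both genotypes. Of the killing and NK genes, 7 of 10 lay in the signal range of olfactory receptor genes, which limits what the array can show for them.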
